A study of Mus musculus with 12 samples.

Results

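The genes of monoamine synthesis and transport were followed in RNA from the brains of 12 mice, 4 wild-type (WT), 4 heterozygous (HT, Slc6a20a+/-) and 4 homozygous (HM, Slc6a20a-/-, named KO in the deposited columns) for an allele that lacks exon 3 of Slc6a20a, a transporter of proline and glycine. The 7 genes were taken by name, and all 7 were found among the 19775 genes of the deposited table: Th, Ddc, Tph2 and Dbh encode enzymes, and Slc6a3, Slc6a4 and Slc18a2 encode transporters. All mice were males of the C57BL/6N strain at about postnatal day 120 and came from crosses of heterozygous parents, so the 3 genotypes differ in the number of mutant alleles in every cell of the body. Poly-A RNA was sequenced in pairs of reads, and each value below is a normalized count, an estimated read count divided by a size factor for the mouse. Litters were not stated, so p-values measure the spread between these mice. Values summed over genes to between 33284951 and 33748623 per mouse, and the number of reads before normalization is not known.

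Dopamine, noradrenaline and serotonin are made by small groups of neurons in the midbrain, hypothalamus, olfactory bulb and brainstem whose axons reach most of the brain. Tyrosine hydroxylase (Th) makes L-DOPA from tyrosine and tryptophan hydroxylase (Tph2) makes 5-hydroxytryptophan from tryptophan, and each is the rate-limiting step of its pathway. Aromatic L-amino acid decarboxylase (Ddc) then yields dopamine or serotonin, and dopamine beta-hydroxylase (Dbh) turns dopamine into noradrenaline. The vesicular transporter (Slc18a2) packs all of these into synaptic vesicles, and the plasma membrane transporters for dopamine (Slc6a3) and serotonin (Slc6a4) take them back up. Because messenger RNA is held largely in the cell body, the level in a brain lysate depends on how many such neurons it holds, and fewer cells and less RNA per cell cannot be told apart in these samples.

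The genes lie apart in the genome (GRCm38), except that Ddc at chr11:11814101-11898144 and Slc6a4 at chr11:76998603-77032340 share a chromosome. Th spans chr7:142892752-142931128, Dbh chr2:27165233-27183200, Tph2 chr10:115078641-115185022, Slc6a3 chr13:73536747-73578672 and Slc18a2 chr19:59260896-59296012. RefSeq promoters of 300 bases, 250 before and 50 after a start site, were found for all 7 genes, with 2 for Ddc. They were searched on both strands for a cAMP response element (TGACGTCA), an NGFI-B response element (AAAGGTCA, the site of Nr4a nuclear receptors) and a TATA box (TATAAA). The promoters of the 3 genes of dopamine neurons whose levels moved together between mice, and that of Tph2, are printed 5′ to 3′ on the gene's strand, with every match in capitals. They lie at chr7:142899946-142900245 on the minus strand for Th, chr19:59260628-59260927 on the plus strand for Slc18a2, chr13:73536497-73536796 on the plus strand for Slc6a3 and chr10:115184973-115185272 on the minus strand for Tph2.
Th: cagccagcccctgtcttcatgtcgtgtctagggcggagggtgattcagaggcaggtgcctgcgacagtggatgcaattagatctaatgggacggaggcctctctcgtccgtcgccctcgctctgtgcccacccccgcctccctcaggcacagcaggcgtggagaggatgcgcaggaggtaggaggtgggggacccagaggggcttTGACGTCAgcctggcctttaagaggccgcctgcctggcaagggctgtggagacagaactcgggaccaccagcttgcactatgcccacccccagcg
Slc18a2: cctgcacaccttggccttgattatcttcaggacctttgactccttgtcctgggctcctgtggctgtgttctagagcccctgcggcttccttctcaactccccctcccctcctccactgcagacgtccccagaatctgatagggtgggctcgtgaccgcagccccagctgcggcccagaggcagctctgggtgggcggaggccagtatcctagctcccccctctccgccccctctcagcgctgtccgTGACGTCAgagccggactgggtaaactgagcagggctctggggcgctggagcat
Slc6a3: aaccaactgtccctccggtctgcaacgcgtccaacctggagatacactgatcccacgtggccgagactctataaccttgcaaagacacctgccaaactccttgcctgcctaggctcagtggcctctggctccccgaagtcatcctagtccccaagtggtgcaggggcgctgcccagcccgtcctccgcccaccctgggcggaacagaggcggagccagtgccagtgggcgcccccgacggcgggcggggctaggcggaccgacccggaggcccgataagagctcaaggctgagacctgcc
Tph2: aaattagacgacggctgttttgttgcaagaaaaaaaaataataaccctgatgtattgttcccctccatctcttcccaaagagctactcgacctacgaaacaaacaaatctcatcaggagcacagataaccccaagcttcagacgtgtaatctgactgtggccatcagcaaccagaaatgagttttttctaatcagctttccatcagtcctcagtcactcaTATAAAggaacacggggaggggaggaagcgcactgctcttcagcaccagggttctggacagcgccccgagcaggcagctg
The cAMP response element was found in Th, where it begins 45 bases before the start site, and in Slc18a2, where it begins 4 bases before it. It was present in 1.79% of all 32851 promoters in the table. Tph2 held a TATA box that begins 30 bases before the start site, as against 13.6% of all promoters with one at any place. The upstream promoter of Ddc held an NGFI-B response element, present in 1.51% of all promoters, and a TATA box that overlaps it, both on the opposite strand. None of these letters occurred in the windows of Slc6a3, Slc6a4, Dbh or the other Ddc promoter. Th and Slc18a2 were 64.3% and 64.0% G and C and Slc6a3 was 66.0%, while Tph2 was 47.3% and the median promoter 52.7%.

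Genotype was checked first on Slc6a20a itself. Its normalized counts were 704, 584, 679 and 751 in the WT mice, 332, 366, 372 and 310.3 in the HT mice, and 69.0, 55.6, 76.5 and 57.1 in the HM mice. The levels followed the number of intact alleles with no overlap, at 50.8% of the WT mean in HT and 9.50% in HM mice. The adjusted p of the limma fit over all genes was 0.000938 between HT and WT mice, 1.75e-08 between HM and WT mice and 1.79e-06 between HM and HT mice.

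Levels of the 7 genes spanned a wide range, which was compared per kilobase of the longest annotated transcript. In WT mice (n = 4, mean ± SD, normalized counts per kb) Ddc stood at 217 ± 16.3, Th at 160 ± 20.8, Slc6a3 at 99.3 ± 42.9 and Slc18a2 at 83.7 ± 14.5. Tph2 was at 16.5 ± 11.5, Slc6a4 at 5.71 ± 7.30 and Dbh at 3.81 ± 0.957. The genes used by dopamine neurons were thus the higher 4, and those of serotonin and noradrenaline neurons the lower 3. Ddc was above Th in every WT mouse, and Slc18a2 was above Tph2 in every WT mouse. The ranges of Th and Slc6a3, of Slc6a3 and Slc18a2, of Tph2 and Slc6a4, and of Slc6a4 and Dbh overlapped. With the median transcript length in place of the longest one, Dbh (7.06) came above Slc6a4 (6.55) and the other neighbours kept their order. The tissue was labelled whole brain, yet the Purkinje cell marker Pcp2 reached only 5.5 to 26.4 and the granule cell marker Cbln3 only 12.1 to 24.5 normalized counts over the 12 mice. Slc6a5, the transporter of glycinergic brainstem and spinal neurons, was at 7.4 to 44.5. How much hindbrain each sample held, and its part in the low levels of Tph2, Slc6a4 and Dbh, was not tested.

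Between genotypes, Th had the lowest p-values of the 7 genes, in the comparisons of HM mice, and none of the 7 passed the adjusted threshold. In WT mice its normalized counts were 254, 316, 326 and 349. In HT mice they were 382, 233, 332 and 373. In HM mice they were 433, 400.4, 375 and 486. Every HM mouse was above every WT mouse, whereas the HT mice spread from below the lowest WT mouse to above the highest and overlapped with both. The HM mean of 423 ± 47.7 was 136% of the WT mean of 312 ± 40.5 (SD, n = 4 each). On the scale of log2(normalized count + 1) the difference between HM and WT was 0.44 (SE 0.11, 95% confidence interval 0.21 to 0.68), with an unadjusted p = 0.00135 and an adjusted p = 0.553 over all genes in limma. The two-sided exact permutation test of the same 8 mice gave p = 0.0286, the smallest that 4 against 4 mice allow. Th thus did not pass the adjusted threshold of 0.05. Leaving out each of the 8 mice in turn gave a difference of 0.35 to 0.50. HM mice were also higher than HT mice, by 0.38 (SE 0.14, unadjusted p = 0.0187 and adjusted p = 0.9998 in limma, exact permutation p = 0.0571), and 1 HT mouse at 382 lay above the lowest HM mouse at 375. That difference was 0.22 without the HT mouse at 233 and at most 0.46 with another mouse left out, and it was 0.70 with the start of the animal number in the column names as a block, which leaves 1 HM mouse and 2 HT mice to set it. HT and WT mice differed by 0.07 (interval -0.25 to 0.38). The HM and HT comparisons share their WT mice.

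Counts over the 7 genes were read against all genes tested. In HT against WT 5 of the 7 passed the filter of a mean of 10 normalized counts, in HM against WT 6, and in HM against HT 5. Dbh passed in none, and Slc6a4 passed in HM against WT alone. By the adjusted p, 0 of these were called in any comparison with limma, beside 0.00555%, 0.0111% and 0.00556% of all genes in HT against WT, HM against WT and HM against HT. At an unadjusted p under 0.05 the count was 0 of 5 in HT against WT, 1 of 6 in HM against WT and 1 of 5 in HM against HT, Th in both, beside 6.42%, 6.99% and 3.74% of all genes. Genotypes that did not overlap were seen for 0, 1 and 0 of the tested members, beside 3.73%, 4.22% and 2.38%. Over 6 genes, 1 gene alone makes a share of 16.7%.

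**Figure D1:**
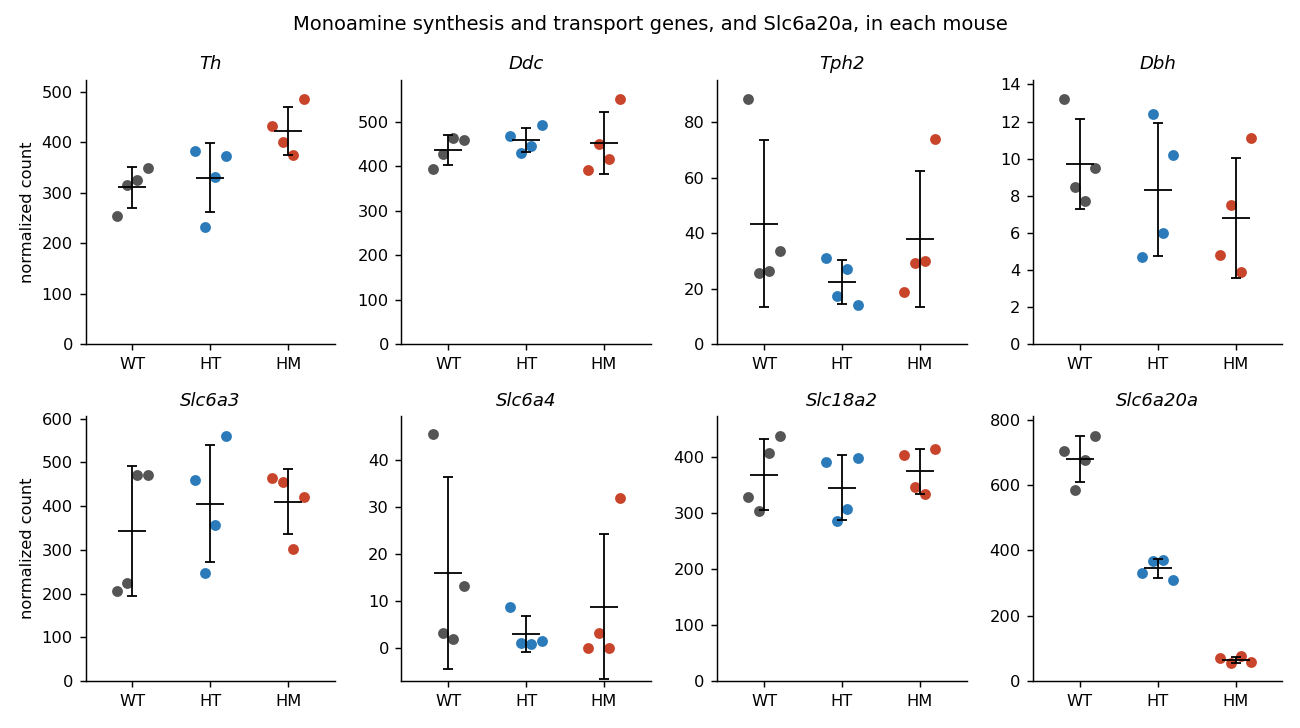
Normalized count (y axis, linear, a different scale for each gene) of the 7 genes and Slc6a20a in WT, HT and HM mice; points are mice, the horizontal mark is the mean and the bars are 1 SD (n = 4), which for Slc6a4 reach below 0. Th in HM mice (375 to 486) lies above all WT mice (254 to 349), the other 6 genes overlap between genotypes, and single mice carry the high values of Tph2 and Slc6a4.

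The other 3 synthesis enzymes overlapped between all genotypes. Ddc, which acts after both hydroxylases, had normalized counts of 394, 429, 465 and 461 in WT, 468, 431, 447 and 494 in HT, and 393, 450.2, 418 and 551 in HM mice. Its 3 genotypes overlapped widely, and the HM mice held both the lowest and the highest value. The log2 difference of Ddc was 0.07 between HT and WT mice (interval -0.09 to 0.24), 0.04 between HM and WT mice (-0.18 to 0.26) and -0.03 between HM and HT mice (-0.24 to 0.18), and the value for Th in HM against WT lay above all 3 intervals. Whether Th and Ddc differ in their response was not tested.

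Tph2, the enzyme specific to serotonin neurons, had normalized counts of 88.3, 25.5, 26.5 and 33.5 in WT, 31.1, 17.5, 27.0 and 14.1 in HT, and 19.0, 29.3, 29.9 and 73.9 in HM mice. A single mouse in WT (88.3) and a single one in HM (73.9) stood well above the remaining 10, which lay between 14.1 and 33.5. The HT mean was 51.6% of the WT mean, a log2 difference of -0.79 (SE 0.37, interval -1.60 to 0.02, unadjusted p = 0.0548 and adjusted p = 0.775 in limma, exact permutation p = 0.171), and it became -0.39 without the WT mouse at 88.3. For HM against WT the difference of Tph2 was -0.17 (interval -1.10 to 0.76), and without that WT mouse it turned to 0.24. For HM against HT it was 0.62 (interval -0.19 to 1.44, unadjusted p = 0.123 in limma), and 0.25 to 0.88 with a mouse left out. With the start of the animal number as a block, which leaves 1 HM and 2 HT mice to set it, the HM and HT difference was 1.62.

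Dbh, the marker enzyme of noradrenaline neurons, was near the lower end of the table, at 13.2, 8.5, 7.7 and 9.5 in WT, 4.7, 12.4, 6.0 and 10.2 in HT, and 4.8, 7.5, 3.9 and 11.1 in HM mice. All 3 genotypes overlapped. The exact permutation test gave p = 0.457 between HT and WT mice, 0.2 between HM and WT mice and 0.571 between HM and HT mice, and the log2 difference between HM and WT was -0.52 (interval -1.32 to 0.29), which holds a large decrease as well as a small increase.

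Slc6a3, the dopamine transporter, varied widely from mouse to mouse. Its normalized counts were 206, 224, 471 and 472 in WT, 459, 247, 358 and 561 in HT, and 464, 454, 302 and 420.2 in HM mice. The WT mice fell into 2 low and 2 high values, which enclosed all HM mice, and the HT mice reached above both. The log2 difference was 0.29 between HT and WT mice (interval -0.33 to 0.90), 0.34 between HM and WT mice (-0.21 to 0.89) and 0.06 between HM and HT mice (-0.40 to 0.52), with an adjusted p = 0.808 or more in limma. Leaving out 1 mouse moved the HM and WT difference to between 0.14 (without WT replicate 1) and 0.53 (without WT replicate 3 or 4), and it was 0.17 without WT replicate 2. The HT and WT difference moved to between 0.08 (without WT replicate 1) and 0.50 (without HT replicate 2). Column names also carry an animal number, whose meaning is not stated. With the start of that number as a block, which leaves 2 WT and 2 HM mice to set the difference, Slc6a3 in HM against WT was 0.73 (unadjusted p = 9.54e-05, adjusted p = 0.237 in limma), and Th was 0.59 (adjusted p = 0.300).

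Slc18a2, shared by all monoamine neurons, was steadier, with normalized counts of 327, 302, 406 and 437 in WT, 390, 285, 306 and 398 in HT, and 402, 345, 333 and 414 in HM mice. The genotypes overlapped. The differences were -0.09 between HT and WT mice (interval -0.38 to 0.20), 0.03 between HM and WT mice (-0.23 to 0.29) and 0.13 between HM and HT mice (-0.13 to 0.38) on the log2 scale.

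Slc6a4 was the sparsest of the 7. WT mice had 45.6, 3.1, 1.9 and 13.3 normalized counts, HT mice 8.8, 1.0, 0.9 and 1.6, and HM mice 0.0, 3.3, 0.0 and 31.8. It was listed at 0 in 2 HM mice, and the highest WT and the highest HM mouse were the same ones that were highest for Tph2. The exact permutation p of Slc6a4 was 0.171 between HT and WT mice, 0.343 between HM and WT mice and 0.943 between HM and HT mice. The log2 difference between HM and WT was -1.46, with an interval from -3.83 to 0.92. It was -2.96 with a pseudocount of 0.1, and -0.86 when either HM mouse listed at 0 was left out.

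**Figure D2:**
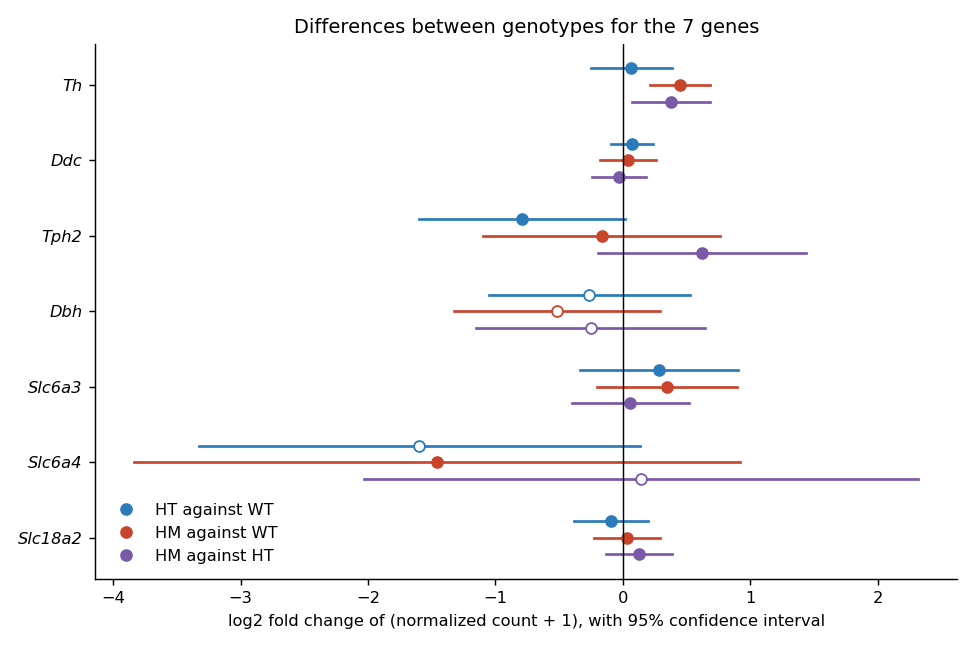
Log2 fold change of (normalized count + 1) for each gene (x axis) with its 95% confidence interval from limma, for the 3 pairs of genotypes (4 mice each); open points mark a gene below the filter in that comparison, taken from the fit without a filter. The interval of Th excludes 0 in HM against WT (0.21 to 0.68) and in HM against HT (0.07 to 0.68), and that of every other gene includes 0.

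The spread between mice of one genotype was set beside that of genes of like level. The SD of log2(normalized count + 1) within genotypes was 0.51 for Slc6a3, and 99.4% of the 6490 genes with a mean of 100 to 1000 had a smaller one. The same SD was 0.24 for Th (91.0% of those genes had a smaller one), 0.22 for Slc18a2 (88.4%) and 0.15 for Ddc (62.6%). It was 0.72 for Tph2, 0.51 for Dbh and 1.85 for Slc6a4, which have lower means and were not ranked. From the lowest to the highest of the 12 mice, Slc6a3 differed 2.72-fold, Th 2.09-fold, Slc18a2 1.53-fold, Ddc 1.40-fold and Tph2 6.24-fold.

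Several of the 7 genes varied together between mice. Over the 12 mice, on log2 values centred within genotype, 21 pairs of genes were compared, and 5 had a Benjamini-Hochberg adjusted p under 0.05 by exact permutation of mice within genotype. Slc6a3 and Slc18a2 were the closest pair, with Pearson's r of 0.892 (p = 0.00514, adjusted p = 0.027) and Spearman's rho of 0.902 (p = 0.00304, adjusted p = 0.0628), and r was 0.841 once the 2 mice with the most extreme Slc6a3 were left out. Th followed Slc18a2 with r = 0.779 (exact permutation p = 0.00405, adjusted p = 0.027; rho 0.797, p = 0.00615, adjusted p = 0.0628; r = 0.795 without 2 mice). It followed Slc6a3 with r = 0.776 (exact permutation p = 0.0021, adjusted p = 0.027; rho 0.762, p = 0.00897, adjusted p = 0.0628), and this r was 0.545 without the WT and the HT mouse with the lowest Th. Th and Ddc gave r = 0.634 (exact permutation p = 0.00832, adjusted p = 0.0349; rho 0.727, p = 0.0132, adjusted p = 0.0695; r = 0.673 without 2 mice). The Spearman values of these pairs thus missed the threshold after adjustment.

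The serotonin pair, Tph2 and Slc6a4, had r = 0.861 (exact permutation p = 0.00463, adjusted p = 0.027) and rho = 0.662 (p = 0.0421, adjusted p = 0.126). Without the WT mouse and the HM mouse that were highest for both, r was 0.556, so that much of the relation rests on those 2 mice, and Slc6a4 is near 0 in most of the others. Across the 2 groups, Tph2 gave r = -0.020 with Th, -0.283 with Slc6a3, -0.024 with Slc18a2 and 0.256 with Ddc, and Slc6a4 gave 0.199 with Th, -0.004 with Slc6a3, 0.260 with Slc18a2 and 0.485 with Ddc, all with an exact permutation adjusted p of 0.573 or more. Without the 2 mice with the lowest Th, r with Th was 0.450 for Tph2 and 0.774 for Slc6a4, so the low values of these pairs rest in part on those mice. Dbh passed with none of the other 6 genes.

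**Figure D3:**
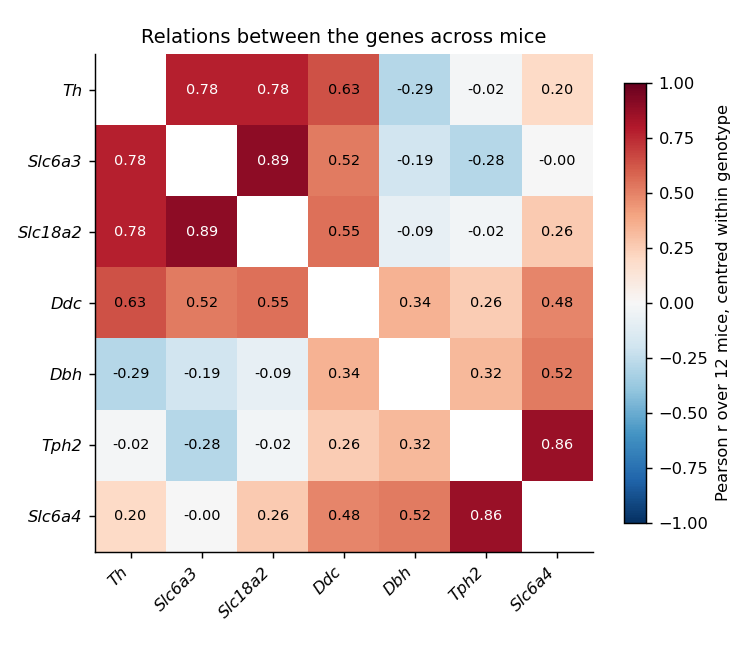
Pearson's r (colour and number) between each pair of the 7 genes over 12 mice, on log2(normalized count + 1) centred within genotype. Th, Slc6a3, Slc18a2 and Ddc have r from 0.520 to 0.892 with each other. Of these, Ddc with Slc6a3 (0.520) and with Slc18a2 (0.554) did not pass (adjusted p = 0.144 each by exact permutation). Tph2 and Slc6a4 form a pair at 0.861, and Tph2 lies between -0.283 and -0.020 with Th, Slc6a3 and Slc18a2. Other pairs that did not pass reach like values, such as Dbh with Slc6a4 (0.523) and Ddc with Slc6a4 (0.485).

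All 18006 genes tested in any comparison were then ranked by the same r, as a description. The gene most like Slc6a3 was Chrna6 (r = 0.959 over 12 mice), the nicotinic receptor subunit found on dopamine neurons, followed by Sec23b (0.932), Slc18a2 (0.892), Unc13d (0.891) and Kdm1b (0.888). Most like Slc18a2 were Slc6a3 (0.892), Gja5 (0.891), En1 (0.888), Adhfe1 (0.859) and Omd (0.858). En1 is a homeobox factor kept in adult midbrain dopamine neurons. En1 had 6.6 and 4.2 normalized counts in the same 2 WT mice that were low for Slc6a3 and 4.6 in the HT mouse that was low, against 15.7 to 27.1 in the other 9 mice. Those 3 mice were the lowest of the 12 for Slc6a3, Chrna6 and En1, and were among the 4 lowest for Slc18a2. For Th the list was Amot (0.941), AC124502.1 (0.916), Ubash3b (0.893), Tpcn2 (0.888) and Gm42863 (0.883). For Ddc it was Mfap4 (0.925), Frmd4a (0.916), Adgrg1 (0.896), Spata5 (0.892) and Cenpo (0.872). For Tph2 it was Cwc15 (0.947), Mrpl13 (0.927), Stmn4 (0.915), Cep78 (0.902) and Uqcrc2 (0.894), for Slc6a4 Mrps21 (0.905), Ephb1 (0.898), Xlr3b (0.883), Ap1ar (0.882) and Trappc2 (0.873), and for Dbh Mllt11 (0.935), Gm37696 (0.921), Cacng7 (0.919), Cdkl1 (0.910) and Adra2a (0.905). A search of this many genes over 12 mice gives high values of r for any gene, and no test was made.

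**Figure D4:**
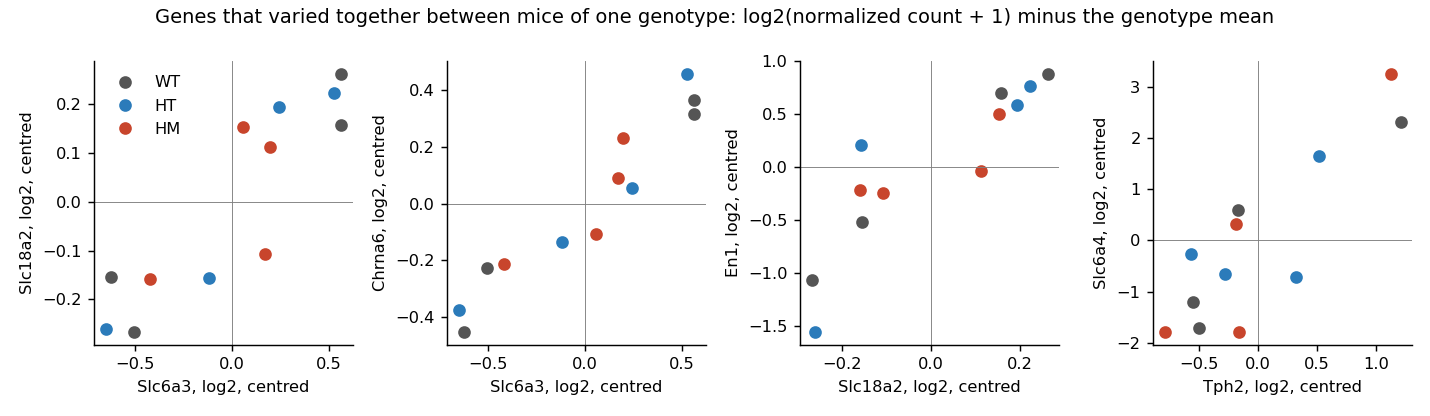
Log2(normalized count + 1) minus the genotype mean for 4 pairs of genes; each point is a mouse, coloured by genotype (4 WT, 4 HT, 4 HM). Slc6a3 with Slc18a2 (r = 0.892), Slc6a3 with Chrna6 (0.959) and Slc18a2 with En1 (0.888) rise together in all genotypes, while for Tph2 with Slc6a4 (0.861) the highest 2 points are 1 WT and 1 HM mouse.

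Th is also made by dopamine interneurons of the olfactory bulb, and markers of the bulb were counted beside it. Of 10 bulb markers that the study did not report, 6 were higher and 1 lower in HM than in WT mice at an unadjusted p under 0.05 (0 of 10 at the adjusted threshold in limma), beside 6.99% of all genes, with a median log2 difference of 0.43 against 0.00 for all genes. In HM against HT 6 of the 10 were higher and 0 lower, beside 3.74% of all genes, with a median of 0.50. In HT against WT 0 were higher and 3 of the 9 tested were lower, beside 6.42% of all genes, with a median of -0.26, while Th differed by 0.07. Scgn, a marker of bulb interneurons, was at 33.9, 33.7, 22.2 and 20.2 normalized counts in WT and 46.9, 31.1, 47.0 and 46.0 in HM mice. Sp8, a factor of the same interneurons, was at 118, 96.6, 78.4 and 90.6 in WT and 174, 119, 118 and 164 in HM mice. Omp, the marker of olfactory sensory neurons, was at 16.6 to 56.4 in WT and 26.2 to 89.2 in HM mice. Gng13, the marker that was lower, was at 367.8 to 470.6 in WT and 323.2 to 392.2 in HM mice. Tpbg differed little, at 473.6 to 547.2 in WT and 493.0 to 587.1 in HM mice. The summed level of the 10 markers ranged from 6321 to 7077 in WT, 6550 to 6983 in HT and 6879 to 8035 in HM mice, with no value at 0. Most of this sum comes from Meis2 and Calb2, with WT means of 3953 and 1428 beside a mean sum of 6603. A further 5 bulb markers (Cdhr1, Eomes, Doc2g, Frmd7 and Ms4a15), which the study chose on these samples and which are therefore not independent evidence of their direction, were all higher in HM than in WT mice at an unadjusted p under 0.05, with sums of 507 to 788 in WT and 769 to 1415 in HM mice. Of all genes 6.99% had such a p, and 0 of the 5 passed the adjusted threshold in limma. Between mice of one genotype, Th and the mean of the 10 markers gave r = 0.059 (exact permutation p = 0.833, adjusted p = 0.975 over 70 relations of the 7 genes with 10 marker lists; rho 0.196, p = 0.538, adjusted p = 0.892; r = 0.516 once the 2 mice with the most extreme Th were left out), and 0 of the 70 relations had an adjusted p under 0.05. The lists were these 2 of the bulb and those of brainstem, cerebellum, striatum, cortex, hypothalamus, choroid plexus, meninges and erythrocytes. All 6 choroid plexus genes had lower means in HM than in WT mice (median -0.51). At an unadjusted p under 0.05 in limma there were 3, beside 6.99% of all genes, and 0 of the 6 passed the adjusted threshold. Their sums ranged from 15110 to 19620 in WT and 9700.0 to 17750 in HM mice. The parts of the olfactory bulb and the choroid plexus in the level of Th in HM mice were not tested.

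**Figure D5:**
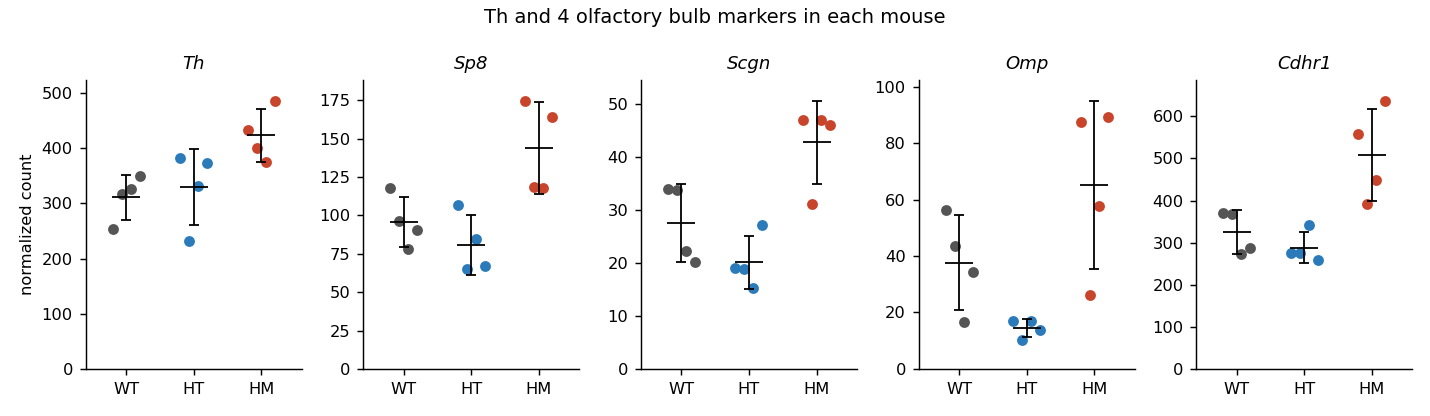
Normalized count (y axis, linear, a different scale for each gene) of Th and of 4 olfactory bulb markers in each mouse; points are mice, the horizontal mark is the mean and the bars are 1 SD (n = 4). Sp8, Scgn and Omp are from the list of markers the study did not report and Cdhr1 is one it reported; as for Th, the HM mean is the highest of the 3 in each. Not all markers of that list follow this order. Gng13, not drawn, had its highest mean in WT mice (408, against 320 in HT and 346 in HM mice).

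The other genes of the monoamine pathway were then counted from lists by function. Of 60 such genes in the table, 54 were tested in each comparison, and 0 passed the adjusted threshold in limma. At an unadjusted p under 0.05 there were 3 higher and 1 lower in HT against WT (7.41% of the 54), 1 higher and 0 lower in HM against WT (1.85%), and 2 higher and 0 lower in HM against HT (3.70%), near or below the shares over all genes. The median log2 difference of the 54 was 0.029, 0.035 and -0.005 in the same order, and that of all genes was within 0.001 of 0 in each. Genotypes did not overlap for 1 higher and 1 lower of the 54 in HT against WT. In HM against WT this held for 1 higher and 0 lower, and in HM against HT for 0. The shares over all genes were 3.73%, 4.22% and 2.38%.

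The genes that make or recycle tetrahydrobiopterin, the cofactor of both hydroxylases, included Gch1, and 0 of 6 tested had an unadjusted p under 0.05 in any comparison. Their log2 differences in HM against WT ran from -0.11 to 0.18. Receptors were counted by transmitter. In HM against WT the 5 dopamine receptors ran from -0.07 to 0.43, the 12 tested serotonin receptors from -0.04 to 0.22 and the 9 adrenergic receptors from -0.22 to 0.18, with 0 at an unadjusted p under 0.05. Adra2a, at 625.4 to 663.8 in WT and 670.0 to 743.5 in HM mice, did not overlap, beside 4.22% of all genes tested. Htr6, a serotonin receptor of the forebrain, had a log2 difference of 0.29 between HT and WT mice (SE 0.11, unadjusted p = 0.0181, adjusted p = 0.768 in limma), with no overlap between those genotypes. Of all genes tested in HT against WT, 3.73% did not overlap. Htr1f had a log2 difference of 0.36 between HM and HT mice (SE 0.16, unadjusted p = 0.0477, adjusted p = 0.9998). Htr2b, which was below the filter, averaged 3.54 in HT and 8.02 in WT mice with no overlap. The exact permutation p of Htr2b was 0.0286, the smallest that 4 against 4 mice allow.

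Of the genes of dopamine neuron identity, 10 of 12 were tested. At an unadjusted p under 0.05 in limma, 2 were higher in HT against WT and 1 in HM against WT. Those lower numbered 0, and HM against HT had 0 of either kind. The shares over all genes were 6.42%, 6.99% and 3.74%. By direction alone, 7 were higher and 3 lower in HT against WT, and 8 and 2 in HM against WT. In HM against HT, 4 were higher and 6 lower. The HM mean was 85.8% of the WT mean for En2 and 97.7% for Lmx1a. Chrna6 had normalized counts of 41.9, 49.1, 74.4 and 72.0 in WT, 86.2, 63.7, 75.4 and 114 in HT, and 98.3, 89.2, 72.1 and 77.7 in HM mice. Its log2 difference from WT was 0.52 in HT (SE 0.22, unadjusted p = 0.0356, adjusted p = 0.770 in limma) and 0.53 in HM mice (SE 0.20, unadjusted p = 0.0201, adjusted p = 0.667), with overlap in both comparisons, and the 2 low WT mice are those low for Slc6a3. Foxa1, a factor of midbrain dopamine neurons, had a log2 difference from WT of 0.76 in HT mice (SE 0.34, unadjusted p = 0.041, adjusted p = 0.770). Its relative Foxa2, below the filter, was at 3.8, 4.2, 2.2 and 5.7 in WT, 3.8, 4.6, 6.0 and 13.0 in HT, and 12.5, 13.6, 10.2 and 12.5 in HM mice. All HM mice were above all WT mice for Foxa2, at levels near the lower end of the table. The exact permutation p was 0.0286, the smallest that 4 against 4 mice allow. Of all genes tested in HM against WT, 4.22% did not overlap. Nr4a2, the nuclear receptor that drives Th in these neurons and is also made in cortex, lay between 1196 and 1427 normalized counts in all 12 mice.

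For serotonin neuron identity, Gata2 and Gata3 were tested, and Gata2 is made by other neurons and by vessels as well. Gata2 had 322, 228, 229 and 259 normalized counts in WT and 187, 185, 213 and 177 in HT mice, with no overlap. The log2 difference of Gata2 was -0.43 (SE 0.12, unadjusted p = 0.00281, adjusted p = 0.750 in limma), and HM mice, at 171 to 345, spanned both. Of all genes tested, 3.73% did not overlap between HT and WT mice. Gata3 was not lower in HT mice, with a log2 difference from WT of 0.04. It was at 31.5 to 49.6 in WT, 25.8 to 74.6 in HT and 28.9 to 82.6 in HM mice. In HT against WT all 5 erythrocyte genes were lower at an unadjusted p under 0.05 in limma, beside 6.42% of all genes. Their median was -0.83, and 0 of the 5 passed the adjusted threshold. Their sums were 7780.0 to 21980 in WT and 6495 to 8717 in HT mice. The part of the erythrocyte genes in the level of Gata2 was not tested. Among the remaining synthesis and packaging genes, 2 of 4 in the table were tested and 0 had an unadjusted p under 0.05. Other genes of the noradrenaline system, including its plasma membrane transporter, were not analysed here.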

How the data were processed

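RNA-seq values of 12 mouse brains were used, 4 per genotype as the titles give it. The authors estimated transcript counts with Salmon 1.1.0 on GRCm38 with GC bias correction, summed them to genes and divided them by DESeq2 1.30.1 size factors, and this normalized count signal was deposited. Reads before normalization could not be recovered, so no count model was fitted. The annotation release behind the counts was not given in the sources used here. Symbols, positions and transcript lengths came from GENCODE M21 on GRCm38. Values were put on the scale of log2(normalized count + 1), and limma 3.58.1 (R 4.3.3), with a trended variance prior, was fitted to each pair of genotypes after genes with a mean under 10 were dropped. The Benjamini-Hochberg adjustment ran over all genes tested. The code was checked on data with known differences. Genes below the filter were given exact permutation tests and the fit without a filter. Named genes were the 7 members, Slc6a20a, pathway genes with an unadjusted p under 0.05 in a comparison, and the 5 genes most like each member. Adra2a, En2, Foxa2, Gata3, Htr2b, Lmx1a and Nr4a2, the ranges of other genes and the marker genes whose values are printed were picked once their values had been seen. The members and lists were chosen with earlier results of these data known.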

Additional observations from a re-analysis of the deposited data

Results flagged for a closer look

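Each of the 7 genes was checked in each genotype for a mouse far from the other 3, by the gap to its nearest neighbour over the whole range (Dixon's ratio, critical value 0.829 for 4 samples). Of the 21 groups tested, 3 held such a mouse, and about 1 in 20 groups is picked out by chance. The highest WT mouse for Tph2 was at 88.3 normalized counts (ratio 0.872). The highest HT mouse for Slc6a4 was at 8.8 (ratio 0.905), and the highest HM mouse for Slc6a4 was at 31.8 (ratio 0.897). Each of these 3 mice was also the highest of its genotype for the other serotonin neuron gene, Slc6a4 or Tph2.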

How the results depend on the processing

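None of the 7 genes passed the adjusted threshold under any alternative run, and of their 313 differences under an alternative 292 kept their direction and 21 reversed. Th in HM against WT kept its direction under 17 alternatives, with an adjusted p of 0.300 to 0.867 and an unadjusted p of at most 0.00606. With a mouse left out, the reversed values were Th in HT against WT (-0.028 to 0.224), Ddc in HM against WT (-0.056 to 0.107) and HM against HT (-0.131 to 0.032), Tph2 in HM against WT (-0.541 to 0.235), Slc6a3 in HM against HT (-0.160 to 0.234), Slc18a2 in HM against WT (-0.056 to 0.120) and Slc6a4 in HM against HT (-0.942 to 0.736). Slc6a4 in HM against HT was also -0.971 with a pseudocount of 0.1, and Ddc in HM against HT was 0.295 with the animal-number block. The cause of these reversals was not tested. Genes past the adjusted threshold (1, 2 and 1 in HT against WT, HM against WT and HM against HT) numbered 0, 1 and 1 when the variance prior had no trend, 2 without a filter and 3 with the animal-number block in HM against HT, and 1 to 5, 2 to 3 and 1 to 7 with a mouse left out. Pathway genes with an unadjusted p under 0.05 (4, 1 and 2) numbered 2 in HM against WT without a filter, 5 in HM against WT and 5 in HM against HT with the animal-number block, 0 in HM against HT with no trend, and 1 to 6, 0 to 4 and 0 to 3 with a mouse left out. Pearson's r of the 5 pairs stayed between 0.559 and 0.940 with a mouse left out, and values not centred gave 0.483 to 0.831. The replicate numbers did not pair the mice, with correlations of same-numbered mice from -0.0658 to 0.0869. With a replicate block, HM against WT had 1 gene past the adjusted threshold and 2 pathway genes, and the difference of Th was 0.445 (adjusted p = 0.753). Normalized counts near 0 limit what can be said of Slc6a4 and Dbh.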
